A study of Homo sapiens with 12 samples.

Results

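The integrated stress response is the programme in which phosphorylation of the translation factor eIF2 slows protein synthesis while the transcription factor ATF4 is translated more. ATF4 pairs with other leucine zipper proteins, among them members of the C/EBP family, and raises genes that make, import and charge amino acids onto tRNA. It also raises genes that close the response or lead to cell death, such as TRIB3, DDIT3 (CHOP) and CHAC1. Proteasome inhibitors are known to raise this response in myeloma cells, which fold and secrete large amounts of antibody and have a high demand for amino acids.

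The genes described here are 40 genes of this response, taken by name: transcription factors, feedback and stress effectors, serine and one-carbon enzymes, other amino acid enzymes, tRNA synthetases with the tRNA exporter XPOT, and secreted proteins with the lipoprotein receptor VLDLR. Of these, 38 were measured by 70 probe sets that name 1 gene each, out of 19775 genes and 54613 probe sets in all. GPT2 and MARS1 were not analysed here; the 3 probe sets of MARS1 name several genes. RNA came from KMS-11 and KMS-34, human multiple myeloma cell lines that had not been selected in carfilzomib, a proteasome inhibitor, and from their derivatives KMS-11/Cfz and KMS-34/Cfz, which grow in 12 nM carfilzomib and were profiled after 1 week without it. Each of the 4 groups has 3 Affymetrix U133 Plus 2.0 arrays, 12 in all. Each derivative is a single selected culture of its line, and all groups were kept in the same medium, with 4% fetal bovine serum by the labels but 10% by the methods. By the study's account the derivatives multiplied more slowly in the drug than the parental lines without it. It is not stated whether replicates came from separate cultures, and p-values here cover no more than the spread from array to array, which may be technical.

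The values are log2 signals that were centred for each probe set, and therefore give differences between arrays and no expression level. A gene is the average of its probe sets. A rise or a fall means that limma gave an adjusted p under 0.05 (Benjamini-Hochberg over all 19775 genes), and a change is the log2 fold change of resistant over parental cells of the same line, with its standard error after ±. Array values are differences from the mean of the 3 parental arrays of that line, in the order of replicates 1, 2 and 3. Within groups, arrays correlated with Pearson's r of 0.759 to 0.949 over all probe sets, lowest for KMS-34/Cfz replicate 1 (0.759 and 0.811). The median SD of the 38 genes was 0.069 in KMS-11, 0.054 in KMS-11/Cfz, 0.069 in KMS-34 and 0.094 in KMS-34/Cfz. Without levels, the plasma cell identity of the lines could not be checked from their markers. In bulk RNA, a lower share of cells that express a gene and less of its RNA per cell cannot be told apart.

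The response genes went down in KMS-11/Cfz where they changed, and mostly up in KMS-34/Cfz. They were chosen with earlier results of these data known, so the shares of all genes beside their counts here and below are no independent test. In KMS-11/Cfz, 6 of the 38 fell and 0 rose, against 1.94% of all genes fallen and 1.63% risen. The 6 were CBS, DDIT4, PHGDH, ALDH1L2, INHBE and SHMT2. At an unadjusted p under 0.05, 14 were lower and 1 higher, and 32 of the 38 changes lay below 0 (49% of all genes), with a median of -0.11 against 0.00 for all genes. In KMS-34/Cfz, 14 rose and 2 fell, where 5.4% of all genes rose and 4.69% fell, and the median was 0.15 against -0.01 for all genes. Those that rose were VLDLR, SESN2, PCK2, CTH, PSPH, TRIB3, JDP2, ASNS, CEBPB, MTHFD2, SHMT2, XPOT, NARS1 and GARS1, and those that fell were EPRS1 and ALDH18A1. For 22 genes the change was below 0 in KMS-11/Cfz and above 0 in KMS-34/Cfz (22.8% of all genes), and for 3 it was the reverse. Only SHMT2 among the 38 was past the threshold in both lines, and in opposite directions, as 0.415% of all genes were. All 3 resistant arrays lay below all 3 parental arrays for 21 of the genes in KMS-11/Cfz and above them for 2 (13.7% and 13.1% of all genes), and in KMS-34/Cfz they lay above for 17 and below for 4 (10.2% and 10.5%). The count of 6 was 3 without KMS-11 replicate 1, and the count of 14 was 7 without KMS-34/Cfz replicate 2, 9 without KMS-34/Cfz replicate 3 and 5 when each line was fitted alone (SESN2, TRIB3, PCK2, CTH and VLDLR). Cyclic loess scaling gave 2 fallen in KMS-11/Cfz and 9 risen in KMS-34/Cfz, where the rises of CTH, JDP2, PCK2, SHMT2 and VLDLR lost their call. It scales by signal level, which centred values lack, so here and below it cannot decide whether a call depends on the scaling. Array weights gave 11 fallen and 1 risen in KMS-11/Cfz.

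**Figure D1:**
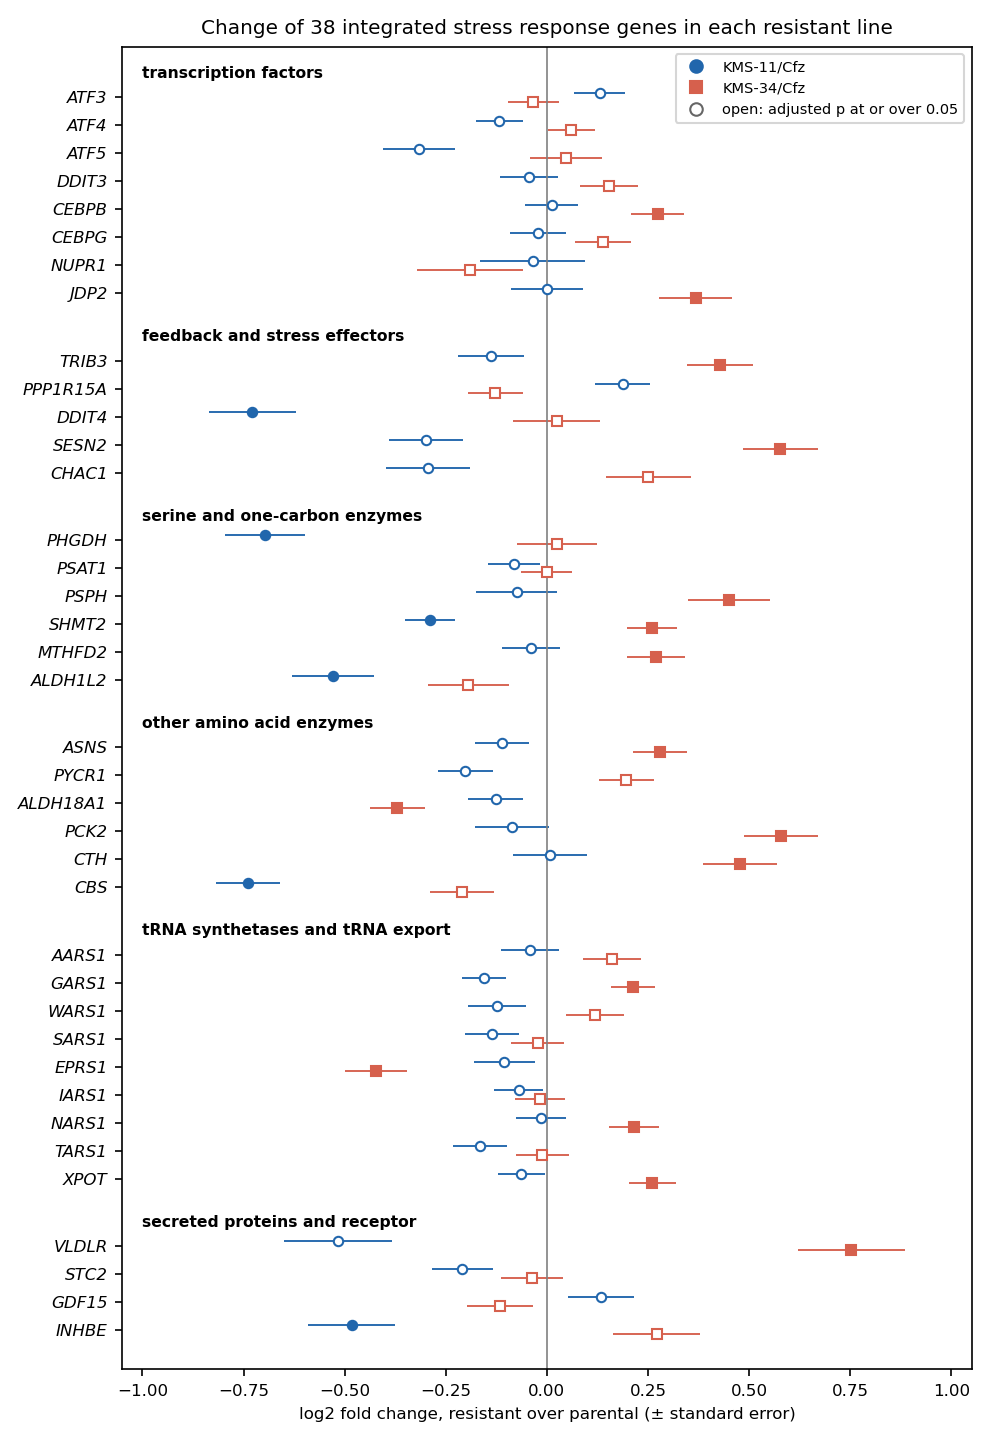
Log2 fold change of resistant over parental cells on the horizontal axis, with its standard error as a bar, for each of the 38 genes in KMS-11/Cfz (circles) and KMS-34/Cfz (squares), grouped by role; filled symbols have an adjusted p under 0.05 in limma. The filled circles are 6 and all lie left of 0, while 14 of the 16 filled squares lie right of 0.

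ATF4 and its C/EBP partners are known to bind composite elements whose letters include TGATGNAA. These letters (or TTNCATCA, their reverse complement) were looked for on both strands of the RefSeq promoter windows of GRCh38.p14, which run from 250 bases before to 50 bases after a start site. Of the 32 measured genes with a window, 10 held them, against 4.46% of 27305 genes with windows, and by windows 10 of 50 against 3.62% of 35116. The 10 were ATF3, CEBPG, JDP2, CHAC1, ASNS, AARS1, GARS1, IARS1, NARS1 and TARS1. As the genes were listed for their part in the ATF4 response, a share above that of all genes is no independent result. The 5 lines that follow show the match in capitals, 5′ to 3′ on the strand of the gene, in genes that rose or whose change differed between the lines.

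CHAC1, chr15:40953222-40953309, + strand: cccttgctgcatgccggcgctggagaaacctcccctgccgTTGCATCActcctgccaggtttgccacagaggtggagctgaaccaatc
ASNS, chr7:97872429-97872516, - strand: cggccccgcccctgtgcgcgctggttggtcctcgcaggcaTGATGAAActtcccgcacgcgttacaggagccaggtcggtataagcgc
JDP2, chr14:75427966-75428021, + strand: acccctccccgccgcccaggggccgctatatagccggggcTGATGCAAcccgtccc
GARS1, chr7:30594805-30594877, + strand: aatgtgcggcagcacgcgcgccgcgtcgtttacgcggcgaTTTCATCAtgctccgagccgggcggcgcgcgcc
NARS1, chr18:57621804-57621833, - strand: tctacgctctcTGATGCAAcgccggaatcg

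The next 3 lines show the same letters in tRNA synthetase genes that passed the threshold in neither line.

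AARS1, chr16:70289646-70289733, - strand: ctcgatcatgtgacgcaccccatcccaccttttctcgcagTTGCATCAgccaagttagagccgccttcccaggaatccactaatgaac
IARS1, chr9:92293698-92293750, - strand: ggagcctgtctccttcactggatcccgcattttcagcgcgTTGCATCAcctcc
TARS1, chr5:33440956-33440985, + strand: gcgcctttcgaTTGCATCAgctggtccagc

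In NARS1 and TARS1 the letters lay after the start site, and in the other 6 genes before it. Of the 10 genes with the letters, 4 rose in KMS-34/Cfz (ASNS, JDP2, GARS1 and NARS1), 0 fell in KMS-11/Cfz, and for CHAC1, ASNS and GARS1 the change differed between the lines. Of the 14 genes that rose in KMS-34/Cfz, 12 had a window, so that 12 of the 32 genes with a window rose, a share like 4 of 10. Of the genes that fell in KMS-11/Cfz, SHMT2, ALDH1L2 and INHBE had no window and could not be counted. The palindrome TGACGTCA of CREB and ATF proteins was found in PPP1R15A alone, a gene without the first pattern, and so in 1 of 32 genes against 2.25% of all.

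PPP1R15A, chr19:48872323-48872410, + strand: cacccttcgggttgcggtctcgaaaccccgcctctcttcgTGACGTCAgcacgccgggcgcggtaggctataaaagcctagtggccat

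A match of letters says nothing of binding in these cells, and SHMT2, PSPH, PYCR1, ALDH1L2, INHBE and NUPR1 had no window in the table.

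Among the 8 transcription factors, 0 fell or rose in KMS-11/Cfz (1 with an unadjusted p under 0.05), and CEBPB and JDP2 rose in KMS-34/Cfz. Beside the counts of this and the other roles below, 1.94% of all genes fell and 1.63% rose in KMS-11/Cfz. In KMS-34/Cfz 5.4% of all genes rose and 4.69% fell. ATF4, which is controlled largely at translation, moved little at the RNA level. Its values were -0.06, -0.16 and -0.14 on the KMS-11/Cfz arrays against 0.00, -0.01 and 0.01 on the parental arrays, a change of -0.12 ± 0.06, adjusted p = 0.414. In KMS-34/Cfz they were 0.00, 0.06 and 0.12 against -0.01, 0.04 and -0.03, a change of 0.06 ± 0.06, adjusted p = 0.652. The KMS-11/Cfz arrays all lay below their parental arrays, by little, while those of the KMS-34 line overlapped. CEBPB, a C/EBP factor that pairs with ATF4, was 0.15, 0.30 and 0.37 on the KMS-34/Cfz arrays and -0.06, 0.08 and -0.01 on the parental ones. The groups did not overlap, and the change was 0.27 ± 0.07, adjusted p = 0.0175. This call did not survive leaving out replicate 2 or 3 of KMS-34/Cfz, or replicate 1 or 3 of KMS-34. JDP2, a leucine zipper repressor of the AP-1 family, was 0.45, 0.53 and 0.12 against 0.07, 0.02 and -0.09. Replicate 3 of the resistant cells was the lowest of them and still above the parental arrays, and the change was 0.37 ± 0.09, adjusted p = 0.0179. Only 1 of the 2 probe sets of JDP2 carried it, at 0.66, while the other was at 0.08, and the call was lost without replicate 2 of KMS-34/Cfz or replicate 3 of KMS-34, and under cyclic loess scaling, at 0.13.

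ATF5, another factor that is controlled at translation in this response, missed the threshold in KMS-11/Cfz. Its values there were -0.40, -0.25 and -0.30 against -0.04, 0.04 and 0.01, with no overlap and a change of -0.32 ± 0.09, adjusted p = 0.0761. Its 4 probe sets disagreed: 2 were at -0.62 and -0.68, past the threshold among probe sets, and the others at -0.04 and 0.07. The gene passed the threshold when the line was fitted alone (adjusted p = 0.0129), with array weights (adjusted p = 0.00525), and without replicate 1 of KMS-34/Cfz (adjusted p = 0.0273) or of KMS-34 (adjusted p = 0.0496). In KMS-34/Cfz the change of ATF5 was 0.05 with adjusted p = 0.855. DDIT3 (CHOP), a factor of the later, death-linked phase, changed by -0.04 with adjusted p = 0.91 in KMS-11/Cfz and by 0.15 with adjusted p = 0.223 in KMS-34/Cfz. CEBPG, the usual partner of ATF4, changed by 0.14 with adjusted p = 0.269 in KMS-34/Cfz, where replicate 1 lay among the parental arrays and the other two above them. Without replicate 1 of KMS-34/Cfz the change was 0.21, past the threshold (adjusted p = 0.0293). ATF3, a factor downstream of ATF4, had the opposite order of signs, 0.13 with adjusted p = 0.401 in KMS-11/Cfz and -0.03 with adjusted p = 0.852 in KMS-34/Cfz. Its KMS-11/Cfz arrays all lay above the parental ones, while the arrays of the KMS-34 line overlapped. NUPR1, a small stress-induced chromatin protein, spread the most of the 8 and overlapped in both lines.

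Of the 5 feedback and stress effectors, DDIT4 fell in KMS-11/Cfz, and SESN2 and TRIB3 rose in KMS-34/Cfz. SESN2, a leucine sensor that holds mTORC1 in check, was 0.45, 0.55 and 0.74 on the KMS-34/Cfz arrays against -0.07, 0.01 and 0.06 on the parental arrays. All 3 resistant arrays lay above the parental ones, and the rise was 0.58 ± 0.09, adjusted p = 0.00132, or 1.49-fold. In KMS-11/Cfz the values were -0.28, -0.28 and -0.34 against -0.12, 0.21 and -0.09. These lay below the parental arrays without overlap, but the change of -0.30 ± 0.09, adjusted p = 0.114 missed the threshold. TRIB3, a pseudokinase that binds ATF4 and DDIT3 and dampens their activity, was 0.29, 0.44 and 0.56 against -0.14, 0.05 and 0.09 in the KMS-34 line. The rise was 0.43 ± 0.08, adjusted p = 0.00393, and its 2 probe sets were at 0.40 and 0.46. The change of TRIB3 in KMS-11/Cfz was -0.14 with adjusted p = 0.538.

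DDIT4 (REDD1), a stress-induced inhibitor of mTORC1, went the other way. On the KMS-11/Cfz arrays it was -1.03, -0.60 and -0.55, against -0.13, 0.02 and 0.11 on the KMS-11 arrays. Every resistant array was lower, replicate 1 the most, and the fall was -0.73 ± 0.11, adjusted p = 0.00164, a 1.66-fold lower signal. In KMS-34/Cfz, DDIT4 stayed within the parental spread, with a change of 0.02 with adjusted p = 0.951 and a 95% interval of -0.21 to 0.26. Cyclic loess scaling turned the KMS-11/Cfz value to 0.31. CHAC1, which breaks down glutathione and marks an active ATF4 response, changed by -0.29 with adjusted p = 0.189 in KMS-11/Cfz and by 0.25 with adjusted p = 0.176 in KMS-34/Cfz. Replicate 3 of KMS-11/Cfz lay at -0.03, among the parental arrays, and without it the KMS-11/Cfz change was -0.42, past the threshold (adjusted p = 0.0357). PPP1R15A (GADD34), which brings a phosphatase to eIF2 and ends the response, had signs opposite to those of TRIB3 and SESN2: 0.19 with adjusted p = 0.195 in KMS-11/Cfz, the highest of the 38 changes there, and -0.13 with adjusted p = 0.313 in KMS-34/Cfz. Its resistant arrays all lay above the parental arrays in KMS-11/Cfz and all below them in KMS-34/Cfz. With array weights in limma, PPP1R15A rose in KMS-11/Cfz, at 0.21 with adjusted p = 0.0333.

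The serine and one-carbon group holds the enzymes that make serine from a glycolytic intermediate (PHGDH, PSAT1, PSPH) and those that pass its carbon to folate in mitochondria (SHMT2, MTHFD2, ALDH1L2). Of the 6, 3 fell in KMS-11/Cfz and 0 rose (0 also at an unadjusted p under 0.05), and 3 rose in KMS-34/Cfz and 0 fell (likewise 0 unadjusted). Of all genes, 1.94% fell in KMS-11/Cfz and 5.4% rose in KMS-34/Cfz. PHGDH, the first enzyme of the pathway, was -0.92, -0.53 and -0.64 on the KMS-11/Cfz arrays and 0.01, 0.14 and -0.14 on the parental ones. All resistant arrays were lower, and the fall was -0.70 ± 0.10, adjusted p = 0.00124, a 1.62-fold lower signal. In KMS-34/Cfz it was -0.07, 0.05 and 0.10 against -0.01, -0.06 and 0.07. These overlapped, with a change of 0.03 with adjusted p = 0.943. The fall in KMS-11/Cfz kept its call when any single array was left out, but cyclic loess scaling gave 1.35 there. PSAT1, the second enzyme, showed -0.08 with adjusted p = 0.721 in KMS-11/Cfz and 0.00 with adjusted p = 0.996 in KMS-34/Cfz, with overlap in both.

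PSPH, the last enzyme of serine synthesis, rose in KMS-34/Cfz. Its values there were 0.42, 0.47 and 0.47 against 0.06, 0.18 and -0.24, so that the resistant arrays lay close together above a wide parental group. The rise was 0.45 ± 0.10, adjusted p = 0.0111, with the 3 probe sets at 0.43 to 0.46, and it lost its call when the line was fitted alone. SHMT2, the mitochondrial enzyme that splits serine into glycine and a one-carbon unit, fell in one line and rose in the other. In KMS-11/Cfz it was -0.23, -0.27 and -0.37 against -0.04, 0.07 and -0.03, and in KMS-34/Cfz 0.19, 0.26 and 0.32 against 0.00, 0.01 and -0.01. Groups did not overlap in either line. The changes were of like size, -0.29 ± 0.06, adjusted p = 0.0201 and 0.26 ± 0.06, adjusted p = 0.0169. Cyclic loess scaling ended both calls, with values of 0.077 and 0.31. The first call was lost without replicate 2 or 3 of KMS-11/Cfz or any one of the KMS-11 arrays, and the second without replicate 2 or 3 of KMS-34/Cfz, so that the count of genes called in opposite directions, 1 as reported, was 0 without each of these 7 arrays. It was 2 without replicate 1 of KMS-34/Cfz or replicate 2 or 3 of KMS-34, when VLDLR joined it. Of the 3 probe sets of SHMT2, the same 1 passed the threshold among probe sets in each line, at -0.34 and 0.39. The others had the same signs but did not pass, at -0.26 and -0.27 in KMS-11/Cfz and 0.15 and 0.24 in KMS-34/Cfz.

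MTHFD2, the next mitochondrial enzyme, was 0.18, 0.25 and 0.37 on the KMS-34/Cfz arrays against -0.06, 0.05 and 0.01. It rose by 0.27 ± 0.07, adjusted p = 0.0303, without overlap, and missed the threshold when replicate 2 or 3 of KMS-34/Cfz, or replicate 1 or 3 of KMS-34, was left out. Only 1 of its 2 probe sets carried the rise, at 0.39, while the other was at 0.15. In KMS-11/Cfz the change of MTHFD2 was -0.04 with adjusted p = 0.925. ALDH1L2, which oxidises formyl-folate and yields NADPH in mitochondria, was -0.59, -0.48 and -0.51 on the KMS-11/Cfz arrays against 0.09, -0.08 and -0.02. The fall of -0.53 ± 0.10, adjusted p = 0.00998 rested on 1 of its 3 probe sets, at -1.65, with the others at -0.01 and 0.07, and the median of the probe sets gave 0.05. It lost its call without KMS-11/Cfz replicate 1 or KMS-11 replicate 1. In KMS-34/Cfz, ALDH1L2 changed by -0.19 with adjusted p = 0.298.

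**Figure D2:**
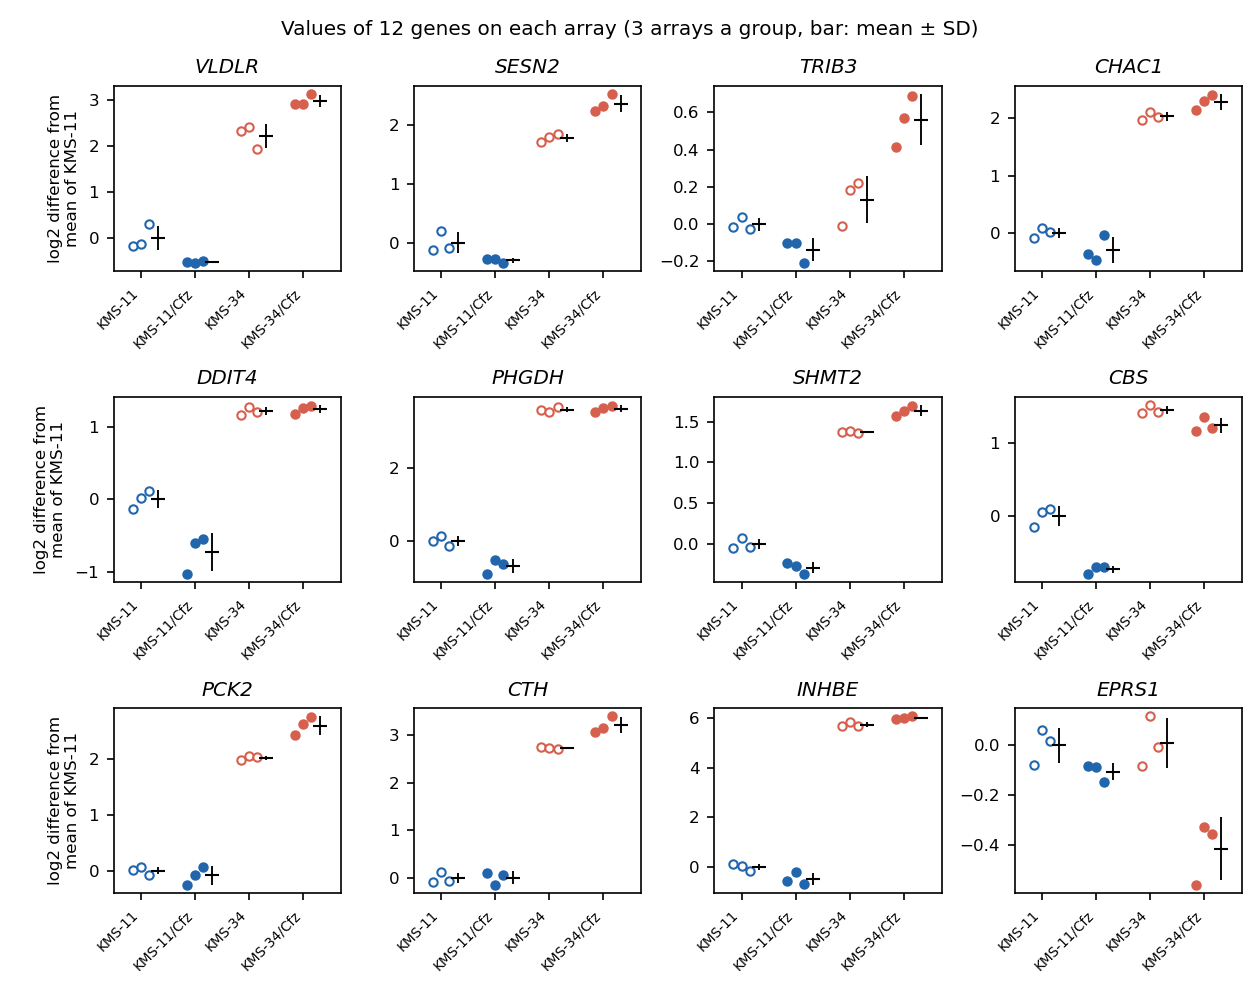
Log2 difference from the mean of the KMS-11 arrays on the vertical axis for 12 of the genes on each array (points; open, parental; filled, resistant; 3 arrays a group), with the mean and SD of each group as a cross. SESN2 and VLDLR lie lower in KMS-11/Cfz than in KMS-11 and higher in KMS-34/Cfz than in KMS-34, and the distance between the lines is larger than either change for all of the 12 except TRIB3 and EPRS1.

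Among the other amino acid enzymes, 3 of 6 rose and 1 fell in KMS-34/Cfz, while 1 fell in KMS-11/Cfz. PCK2, the mitochondrial enzyme that makes phosphoenolpyruvate, was 0.41, 0.60 and 0.73 on the KMS-34/Cfz arrays against -0.04, 0.02 and 0.02 on the parental ones. The resistant arrays lay clear of the parental ones, and the rise was 0.58 ± 0.09, adjusted p = 0.00131, or 1.49-fold. Under cyclic loess scaling it was 0.60 with a larger error (0.397) and was not called. In KMS-11/Cfz the arrays overlapped, at -0.26, -0.07 and 0.07, with a change of -0.09 with adjusted p = 0.825. CTH, which makes cysteine from cystathionine, behaved alike. It was 0.34, 0.43 and 0.67 against 0.01, 0.01 and -0.02, a rise of 0.48 ± 0.09, adjusted p = 0.00468 that cyclic loess scaling brought to 0.24, no longer called, and changed by 0.01 with adjusted p = 0.993 in KMS-11/Cfz. Its partner CBS, which makes the cystathionine that CTH splits, fell in KMS-11/Cfz. The CBS values were -0.80, -0.70 and -0.71 on the KMS-11/Cfz arrays against -0.15, 0.06 and 0.10. The fall of -0.74 ± 0.08, adjusted p = 0.000125, a 1.67-fold lower signal, was the largest of the 38 genes in that line and kept its call under every alternative run, array omissions included, although its 3 probe sets ranged from -1.12 to -0.18. In KMS-34/Cfz, CBS was -0.29, -0.10 and -0.24 against -0.04, 0.07 and -0.03, lower on every array, with a change of -0.21 with adjusted p = 0.118.

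ASNS, asparagine synthetase and a classical ATF4 target, was 0.16, 0.34 and 0.34 on the KMS-34/Cfz arrays against -0.02, -0.06 and 0.08. It rose by 0.28 ± 0.07, adjusted p = 0.0149, without overlap, and missed the threshold without replicate 2 or 3 of KMS-34/Cfz or replicate 2 of KMS-34. Of its 2 probe sets, 1 carried the call, at 0.36, while the other was at 0.20, and in KMS-11/Cfz they were at -0.29 and 0.07. In KMS-11/Cfz its 3 arrays lay at -0.09, -0.15 and -0.10, just below all parental arrays, and the change of -0.11 with adjusted p = 0.547 did not pass. PYCR1 and ALDH18A1 act in proline synthesis, at its last and first steps. PYCR1 changed by -0.20 with adjusted p = 0.157 in KMS-11/Cfz and by 0.20 with adjusted p = 0.0946 in KMS-34/Cfz, with no overlap of arrays in either line. ALDH18A1 fell in KMS-34/Cfz, where it was -0.47, -0.37 and -0.27 against 0.00, 0.06 and -0.06, a change of -0.37 ± 0.07, adjusted p = 0.00341 that kept its call under every alternative run.

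The 9 tRNA charging and export genes changed little, and their spread was narrow in KMS-11/Cfz. There all 9 changes lay between -0.16 and -0.01, with a median of -0.10, and 0 passed the threshold (2 were lower and 0 higher at an unadjusted p under 0.05). In KMS-34/Cfz, XPOT, NARS1 and GARS1 rose, EPRS1 fell, and the median was 0.12. XPOT, which carries tRNA out of the nucleus, was 0.28, 0.27 and 0.23 against 0.01, 0.08 and -0.09, with a rise of 0.26 ± 0.06, adjusted p = 0.0115 that lost its call when the line was fitted alone, as those of NARS1 and GARS1 did. Of the 2 probe sets of XPOT, 1 carried its rise, at 0.37, while the other was at 0.15. GARS1, the glycyl-tRNA synthetase, was 0.18, 0.23 and 0.22 against -0.05, 0.00 and 0.05, with a rise of 0.21 ± 0.06, adjusted p = 0.0248 that missed the threshold without replicate 2 or 3 of KMS-34/Cfz or replicate 1 or 2 of KMS-34. NARS1, the asparaginyl-tRNA synthetase, was 0.24, 0.29 and 0.12 against -0.01, 0.07 and -0.05. Its rise of 0.22 ± 0.06, adjusted p = 0.0425 lay nearest to the threshold and ended when any one of 10 arrays was left out, all but KMS-34/Cfz replicate 3 and KMS-34 replicate 2. All of these were rises of at most 1.2-fold.

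EPRS1, which charges both glutamate and proline, fell in KMS-34/Cfz, against the direction of the other three. It was -0.57, -0.34 and -0.36 on the KMS-34/Cfz arrays and -0.09, 0.11 and -0.02 on the parental ones. All resistant arrays were lower, and the fall of -0.42 ± 0.08, adjusted p = 0.00302, the lowest of the 38 values in that line, was carried by all 3 probe sets and kept its call under every alternative run. In KMS-11/Cfz the change of EPRS1 was -0.10 with adjusted p = 0.676. The alanine, tryptophan, serine, isoleucine and threonine synthetases AARS1, WARS1, SARS1, IARS1 and TARS1 passed the threshold in neither line. Of these, AARS1 and WARS1 stood highest in KMS-34/Cfz, at 0.16 and 0.12, while TARS1, SARS1 and IARS1 were between -0.02 and -0.01.

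The secreted proteins and the receptor gave both the widest and some of the smallest changes. VLDLR, the very low density lipoprotein receptor and an ATF4 target under stress, was 0.68, 0.68 and 0.90 on the KMS-34/Cfz arrays and 0.11, 0.19 and -0.30 on the parental ones. The rise of 0.75 ± 0.13, adjusted p = 0.00264, or 1.69-fold, was the largest of the 38 in that line. Cyclic loess scaling brought it to 0.33, no longer called. In KMS-11/Cfz it was -0.51, -0.54 and -0.50 against -0.17, -0.12 and 0.30. The resistant arrays lay close together below a wide parental group, in which replicate 3 was high, and the change of -0.52 ± 0.13, adjusted p = 0.0507 just missed the threshold; without KMS-11 replicate 3 it was -0.37. INHBE, which encodes an activin subunit, was -0.56, -0.21 and -0.68 on the KMS-11/Cfz arrays against 0.12, 0.03 and -0.14. It fell by 0.48 ± 0.11 (adjusted p = 0.0252), without overlap, and missed the threshold without replicate 1 or 3 of KMS-11/Cfz or replicate 1 or 2 of KMS-11, while cyclic loess scaling turned it to 3.37. In KMS-34/Cfz, INHBE changed by 0.27 with adjusted p = 0.151, and its resistant arrays all exceeded the parental arrays. STC2, a secreted glycoprotein induced by ER stress, changed by -0.21 with adjusted p = 0.197 in KMS-11/Cfz and by -0.04 with adjusted p = 0.873 in KMS-34/Cfz. GDF15, a stress cytokine, showed 0.13 with adjusted p = 0.569 and -0.12 with adjusted p = 0.486, overlapping in both.

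Whether a change differed between the lines was tested directly, as the KMS-34 change minus the KMS-11 change. This difference was past the threshold for 16 of the 38 genes, all with a positive sign, where 3.7% of all genes had a positive and 2.74% a negative call. Its median over the 38 was 0.32, against -0.02 for all genes. In 14 of the 16 genes the change was below 0 in KMS-11/Cfz and above 0 in KMS-34/Cfz, and the exceptions were CBS, lower in both, and CTH, above 0 in both. By role, they were 4 of 5 feedback and stress effectors, 5 of 6 other amino acid enzymes, 3 of 6 serine and one-carbon enzymes, 2 of 4 secreted proteins and receptor, 2 of 9 tRNA genes and 0 of 8 transcription factors (4 of these at an unadjusted p under 0.05). VLDLR had the largest difference, at 1.27 ± 0.19, adjusted p = 0.00128, followed by SESN2, at 0.88 ± 0.13, adjusted p = 0.00135.

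The genes of the difference were of several kinds. For SESN2, TRIB3, PCK2, PSPH, CTH, ASNS, XPOT, GARS1, SHMT2 and VLDLR the KMS-34/Cfz rise was itself past the threshold. For DDIT4, PHGDH, CBS and INHBE it was the KMS-11/Cfz fall that passed, with differences of 0.75, 0.72, 0.53 and 0.75. CHAC1 and PYCR1 passed in neither line alone, and their differences were 0.55 ± 0.15, adjusted p = 0.0464 and 0.40 ± 0.10, adjusted p = 0.0259. ATF4 itself differed by 0.18 with adjusted p = 0.26. PPP1R15A differed in the other direction, by -0.32 with adjusted p = 0.0737. Its negative difference was called with array weights, with the probe set of largest variance, without KMS-11 replicate 3 and with 3 arrays left out. The count of 16 was 10 without KMS-11/Cfz replicate 2, KMS-11 replicate 1, KMS-11 replicate 2 or KMS-34 replicate 1, and 26 with array weights, of which 24 had a positive sign. Cyclic loess scaling works on signal levels, which centred values lack, and so cannot decide whether these calls depend on the scaling. Under it only 6 of the 16 kept their call (TRIB3, CBS, GARS1, ASNS, PYCR1 and XPOT), and ATF3 and PPP1R15A were added with a negative sign, at -0.37 and -0.71, which made 8. The differences of VLDLR, SESN2 and SHMT2 were then 0.75, 0.50 and 0.23, still positive but not called. For ASNS and CBS, not all probe sets carried the difference, with values of 0.14 and 0.65 for ASNS and a range from -0.01 to 0.84 for CBS. Among probe sets, it passed for 1 of 2 of XPOT (0.25 and 0.395) and 1 of 2 of CTH (0.44 and 0.50). It passed for 2 of 3 of SHMT2 (0.41 to 0.73) and 0 of 3 of PSPH (0.495 to 0.554). The differences of DDIT4, INHBE, PHGDH, PCK2, SESN2, SHMT2, VLDLR, TRIB3, CBS and GARS1 kept their call when any single array was left out (of these, TRIB3, CBS and GARS1 kept it under cyclic loess scaling as well), and those of ASNS, PYCR1, XPOT, PSPH, CHAC1 and CTH each lost it without 7 to 11 of the 12 arrays.

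**Figure D3:**
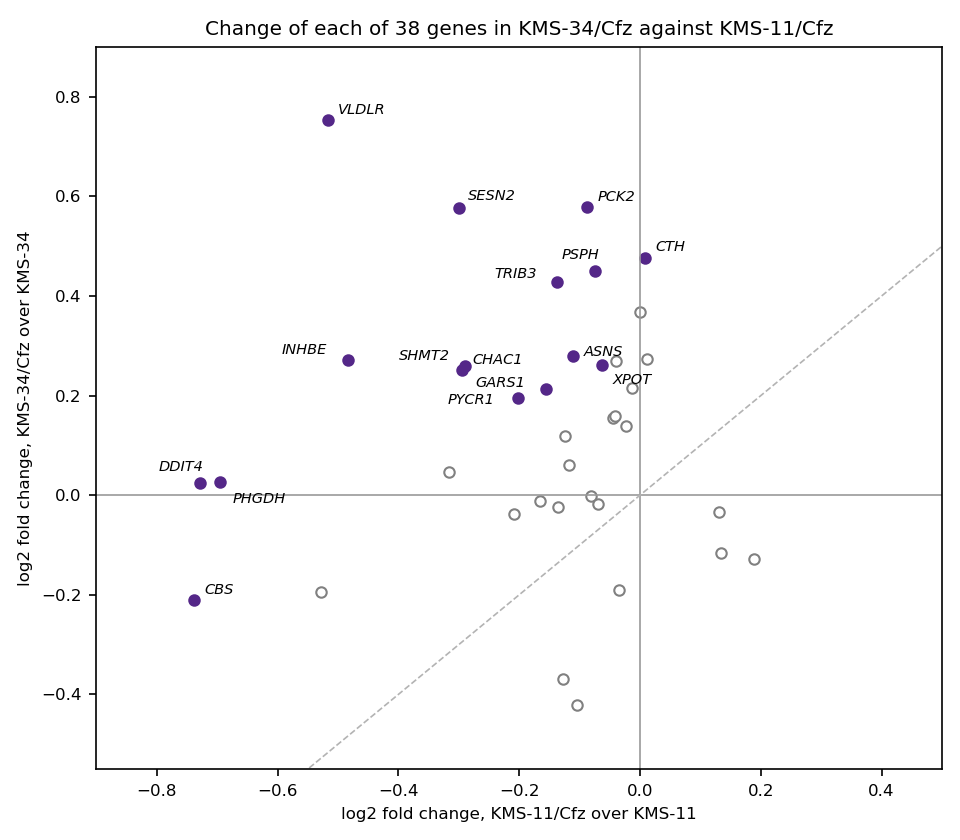
Log2 fold change in KMS-34/Cfz (vertical axis) against that in KMS-11/Cfz (horizontal axis) for the 38 genes, 1 point each; filled points have an adjusted p under 0.05 for the difference between the lines, and the dashed line marks equal change. All 16 filled points lie above the dashed line, 14 of them in the upper left, where the KMS-11/Cfz change is below 0 and the KMS-34/Cfz change above 0.

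The parental lines already differed in this programme. Of the 38 genes, 26 were higher in KMS-34 than in KMS-11 and 5 lower, against 21.6% and 20.5% of all genes, and the median difference was 0.63 against 0.02 for all genes. INHBE differed most. Relative to the KMS-11 mean, its values were 0.12, 0.03 and -0.14 on the KMS-11 arrays and 5.67, 5.87 and 5.71 on the KMS-34 arrays, a difference of 5.75 ± 0.11, adjusted p = 6.65e-14, or 53.8-fold. PHGDH was 3.61, 3.56 and 3.69 on the KMS-34 arrays on the same scale, 12.3-fold above KMS-11. All KMS-34 arrays were far above all KMS-11 arrays for both. All 6 serine and one-carbon enzymes were higher in KMS-34, from 0.37 for PSPH to 3.62 for PHGDH, with ALDH1L2 at 2.84 and SHMT2 at 1.38. For PSPH the arrays of the lines overlapped, the probe sets ranged from -0.30 to 0.93, and the call was lost under cyclic loess scaling, at 0.25. CTH, VLDLR, CHAC1, PCK2, STC2 and SESN2 stood between 2.73 and 1.78.

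Lower in KMS-34 were ATF5, at -1.02 ± 0.09, adjusted p = 3.45e-07, PPP1R15A, at -0.85 ± 0.07, adjusted p = 1.48e-07, and, by less, IARS1, XPOT and WARS1, at -0.36, -0.21 and -0.20. WARS1 lost its call without any one of the parental arrays except KMS-34 replicate 3, and AARS1, among the 26 that were higher, without KMS-11 replicate 1 or 3 or KMS-34 replicate 2 or 3. With single arrays left out, 25 to 26 were higher and 4 to 5 lower. The difference of ATF5 again lay in 2 of its 4 probe sets, at -2.13 and -2.04, with the others at -0.06 and 0.14. ATF4, TRIB3, NARS1, EPRS1, GDF15, PYCR1 and NUPR1 did not pass the threshold between the parental lines; for ATF4 the difference was 0.07, with a 95% interval of -0.06 to 0.19. SARS1, at 1.33, stood apart from the other synthetases, of which the next was GARS1 at 0.63. This comparison shares the parental arrays with those of the resistant cells.

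**Figure D4:**
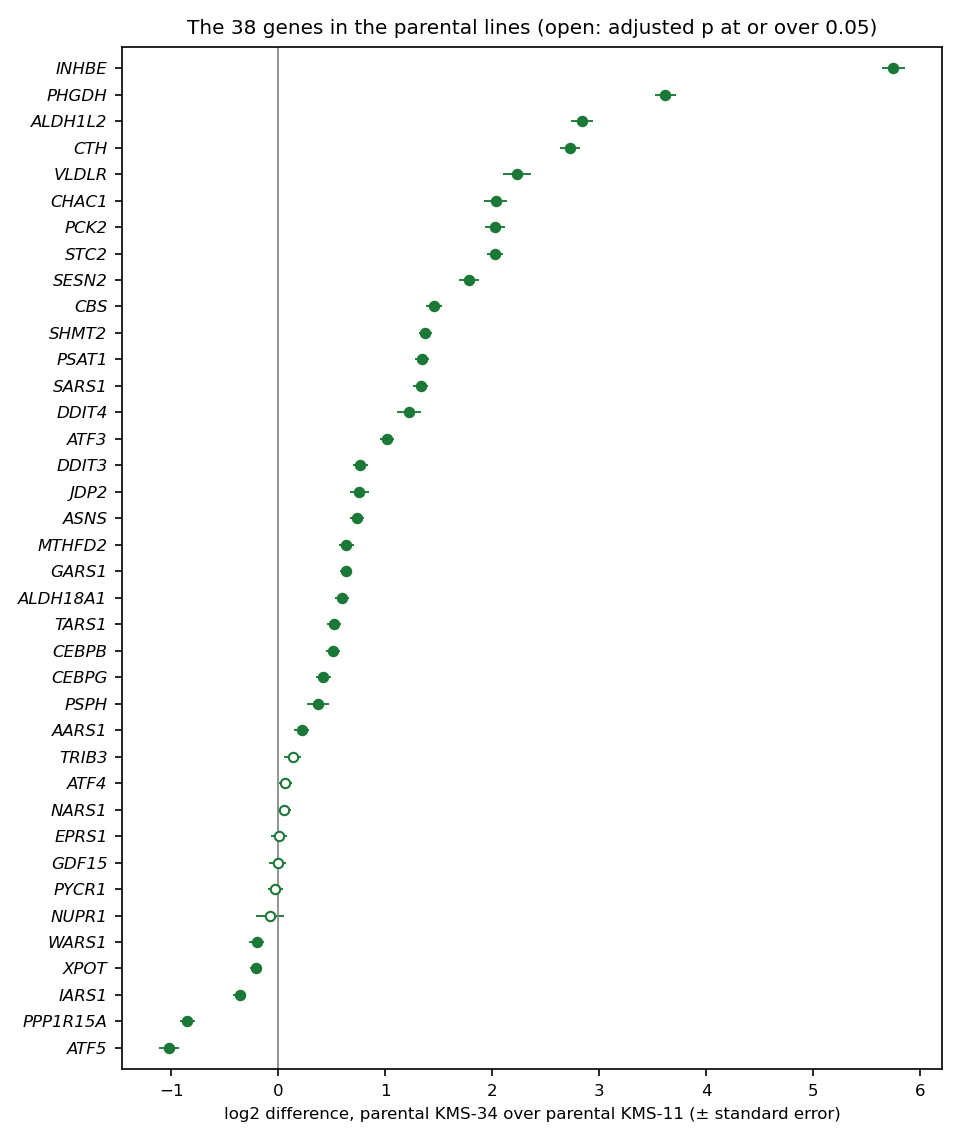
Log2 difference of parental KMS-34 over parental KMS-11 on the horizontal axis, with its standard error as a bar, for each of the 38 genes, ordered by size; filled points have an adjusted p under 0.05 in limma. The 26 filled points right of 0 reach 5.75 for INHBE, and the 5 left of 0 reach -1.02 for ATF5.

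Genes around the response were described in the same way. For this list and those below, 1.94% of all genes fell and 1.63% rose in KMS-11/Cfz. In KMS-34/Cfz 5.4% of all genes rose and 4.69% fell, and the difference was positive for 3.7% and negative for 2.74%. Of 19 genes of the eIF2 kinases, eIF2, its exchange factor eIF2B and the phosphatase regulators, 1 fell in KMS-11/Cfz, EIF2AK4 (GCN2), the kinase that senses uncharged tRNA, at -0.39 ± 0.08, adjusted p = 0.0125. In KMS-34/Cfz, EIF2S2, the beta subunit of eIF2, rose by 0.25 (adjusted p = 0.0122), while PPP1R15B, the constitutive phosphatase partner, was at -0.38 with adjusted p = 0.00244, and EIF2A, a separate initiation factor, at -0.28 with adjusted p = 0.00823. For 0 of the 19 did the change differ between the lines (3 at an unadjusted p under 0.05). The list had a median of -0.06 in KMS-11/Cfz cells, and of -0.07 in KMS-34/Cfz cells.

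Calls were few among the other synthetases. Of 10 measured genes of the other cytosolic synthetases and their scaffold proteins, 0 passed in either line (in the KMS-11 derivative 0 had an unadjusted p under 0.05, and in the KMS-34 derivative 1), and the medians were 0.00 and 0.02. Of 18 measured mitochondrial synthetases, NARS2 fell in KMS-11/Cfz (-0.29 with adjusted p = 0.0365), and IARS2 in KMS-34/Cfz (-0.33 with adjusted p = 0.00546). The difference between the lines passed for 0 of the 10 and 0 of the 18 (0 and 5 at an unadjusted p under 0.05). Of 19 other serine and one-carbon genes, GLDC, the glycine decarboxylase of mitochondria, fell in KMS-11/Cfz cells by 0.73 ± 0.14 (adjusted p = 0.012), and DLD, the lipoamide dehydrogenase it works with, rose by 0.51 ± 0.06, adjusted p = 0.000197 in the KMS-34 derivative. The difference between the lines passed for 0 of these 19 as well (5 at an unadjusted p under 0.05).

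Other ATF4 targets include several amino acid transporters. Of 14 measured, 4 fell and 0 rose in KMS-11/Cfz, 3 rose and 0 fell in KMS-34/Cfz, and 6 differed between the lines, all with a positive sign; their medians were -0.18 and 0.05. SLC1A4, a neutral amino acid exchanger, was at -0.61 ± 0.06, adjusted p = 8.00e-05 in KMS-11/Cfz, ERO1A, an oxidase of the ER, at -0.50 ± 0.06, adjusted p = 0.00032 and SLC7A5, a leucine carrier, at -0.34 with adjusted p = 0.0295. SLC6A9, a glycine carrier, rose by 0.49 and SLC7A11, the cystine carrier, by 0.45 in KMS-34/Cfz. SLC38A2, which takes up glutamine and alanine, fell in KMS-11/Cfz cells (a change of -0.29 ± 0.07, adjusted p = 0.0275) and rose in KMS-34/Cfz cells (0.36 ± 0.07, adjusted p = 0.0033), as SHMT2 did.

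Markers of other cell types that a culture could hold showed 0 calls of 6 for T and NK cells and 0 of 5 for stromal cells in each line (0 also at an unadjusted p under 0.05), and of 6 for monocytes 1, CD14, at -0.32 with adjusted p = 0.0314 in KMS-34/Cfz, where the median of the 6 was -0.04. Of 10 plasma cell markers, 3 fell in KMS-11/Cfz (SLAMF7, MZB1 and TENT5C, from -0.97 to -0.43), and in KMS-34/Cfz 4 fell, among them SLAMF7 at -0.99, and JCHAIN rose by 0.71. The difference between the lines passed for 2 of the 10 with a positive sign and for 0 with a negative one. The part of all these markers in the changes of the response genes was not tested.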

How the data were processed

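RNA of 2 myeloma lines and of the carfilzomib-resistant derivative of each was hybridised to 12 Affymetrix U133 Plus 2.0 arrays, 3 per group. The deposited table holds log2 values that the authors obtained with RMA (version not given in the sources used here), with each of 54613 probe sets centred over the arrays; depth does not apply, and the number of arrays limits the precision. Of these, 41091 probe sets name 1 gene and were averaged into 19775 genes, while 1801 name several and 11721 none. Values of all 12 arrays entered 1 fit with 4 group means in limma 3.58.1 (R 4.3.3; functions lmFit, contrasts.fit and eBayes), with two-sided p-values adjusted by Benjamini-Hochberg over all genes at a threshold of 0.05, a step tested on simulated data. Groups and replicate numbers came from the sample titles. The member genes and all lists were chosen with earlier results of these data known. Every measured member could be named, and of each other list up to 4 called genes per line. Alternatives were each line alone, the replicate block, aligned medians, cyclic loess, a variance trend, array weights, other summaries of probe sets, each array left out in turn and 3 left out together. Centred values allow no filter on dim probe sets. Promoter windows came from RefSeq (GRCh38.p14); 6 of the 38 genes had none. Python 3.11.15 with numpy 2.4.6, pandas 2.3.3 and matplotlib 3.10.9 was used.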

Additional observations from a re-analysis of the deposited data

Results flagged for a closer look

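For 16 genes the change from parental to resistant cells differed between the lines by limma's test of the difference itself, KMS-34 change minus KMS-11 change on the log2 scale (Benjamini-Hochberg over all genes). The differences were 1.27 for VLDLR, 0.88 for SESN2, 0.75 for INHBE, 0.75 for DDIT4, 0.72 for PHGDH and 0.67 for PCK2. They were 0.57 for TRIB3, 0.55 for SHMT2, 0.545 for CHAC1, 0.53 for CBS, 0.525 for PSPH and 0.47 for CTH. For PYCR1, ASNS, GARS1 and XPOT they were 0.40, 0.39, 0.37 and 0.32. Adjusted p-values ran from 0.00128 for VLDLR to 0.0494 for CTH. Of all genes, 3.7% had a positive and 2.74% a negative call. The calls of ASNS, PYCR1, XPOT, PSPH, CHAC1 and CTH were each lost when any one of 7 to 11 arrays was left out. Groups of 3 arrays are too small for a test of single outlying arrays.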

How the results depend on the processing

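Each line fitted alone left 5 genes risen in KMS-34/Cfz, and aligned medians gave 2 genes called in opposite directions. Cyclic loess scaling left 2 fallen in KMS-11/Cfz, 9 risen in KMS-34/Cfz, 0 called in opposite directions and 8 that differed between the lines (6 of the 16 reported, with ATF3 and PPP1R15A added). It turned the KMS-11/Cfz changes of DDIT4, INHBE, PHGDH and SHMT2 to 0.31, 3.37, 1.35 and 0.077, and the differences between the lines of DDIT4, INHBE, PCK2 and PHGDH to -0.25, -3.42, -0.59 and -1.40. It fits each array against the mean of all arrays, which holds no level once values are centred, and the cause was not tested. Array weights, whose iteration stopped before convergence, gave 1 risen and 11 fallen in KMS-11/Cfz, 4 called in opposite directions and 26 that differed between the lines. The median of the probe sets turned ALDH1L2 in KMS-11/Cfz to 0.052. With single arrays left out, the genes fallen in KMS-11/Cfz numbered 3 to 8, those risen in KMS-34/Cfz 7 to 14, those called in opposite directions 0 to 2, and those that differed between the lines 10 to 20; 0 rose in KMS-11/Cfz and 2 fell in KMS-34/Cfz each time. When replicate 1 of KMS-34/Cfz, replicate 1 of KMS-34 and replicate 3 of KMS-11 were all left out, 7 fell in KMS-11/Cfz, 11 rose in KMS-34/Cfz and 15 differed between the lines. Same-numbered arrays deviated together with r of -0.01, 0.13 and 0.04 in KMS-11 and 0.56, 0.37 and 0.05 in KMS-34. Arrays of other numbers in KMS-34 and KMS-34/Cfz reached 0.44 (replicate 3 of KMS-34/Cfz with 2 of KMS-34), and as the low values in KMS-11 and of the last pair in KMS-34 left no pairing over all arrays, the numbers were not taken to pair them. With the replicate block, 7 fell in KMS-11/Cfz, 14 rose in KMS-34/Cfz, 16 differed between the lines (15 of those reported; CTH was lost and ATF5 added) and 1 was called in opposite directions; the seventh fallen gene was ATF5 (adjusted p = 0.0215). Beyond these, 71 values that passed the threshold neither as reported nor under the alternative changed sign, the largest of them 0.37 in size.

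The 3 arrays of each group limit what can be detected, and changes under about 0.2 did not pass the threshold within a line. Centred values give no signal over background, so dim probe sets could not be told from bright ones, and probe sets disagreed in at least 1 comparison for ATF5, ALDH1L2, JDP2, ASNS, CBS, ATF3 and PSPH, among others. Nothing states whether replicates were separate cultures.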
